A study of Mus musculus with 2 samples.

Results

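Type 2 innate lymphoid cells (ILC2s) of the mouse adrenal gland were examined in single-cell RNA sequencing of sorted CD45+ leukocytes. Members were chosen by the raw counts of a few genes, where a count is the number of unique molecular identifiers (UMIs), that is, of tagged transcript molecules. A member had at least 3 UMIs over 4 gate genes, which include Gata3, Il1rl1 and Il17rb, at most 1 UMI over Cd3d, Cd3e and Cd3g of the T cell receptor complex, none of the natural killer (NK) receptors Ncr1 and Klre1, at most 2 UMIs over C1qa, C1qb and C1qc of macrophages, none of the B cell gene Cd79a and at most 1 UMI over the mast cell and basophil genes Cpa3, Mcpt4, Cma1, Mcpt8 and Ms4a2. The gate found 80 members among 6319 cells that had at least 200 genes and at most 15% mitochondrial UMIs. The study sorted live CD45+ cells out of adrenal glands that came from C57BL/6 animals aged 7 weeks, and its data comprised 1 droplet library from females and 1 from males, both of wild-type animals. How many animals went into a library was not stated in the sources used here. With 1 library per sex there were no replicates, no test across animals was possible and no p-value is given, and sex and library cannot be told apart. All values are listed with the female library first and the male library second. Intervals are 95% intervals and cover counting error only.

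ILC2s are lymphocytes without a rearranged antigen receptor that live in tissues, including barrier organs, fat and glands. The alarmin IL-33 activates them through its receptor ST2, encoded by Il1rl1, while IL-25 acts through Il17rb, and the transcription factor GATA3 sets up their type 2 programme of cytokines such as IL-5 and IL-13. They share the expression of Il7r, Icos and Thy1 with T cells, so that the distinction from T cells rests on the absence of a functional T cell receptor rather than on those genes.

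The female library gave 46 members among 3817 cells, which was 1.21% (0.884 to 1.60, Clopper-Pearson). The male library gave 34 among 2502 cells, which was 1.36% (0.943 to 1.89). The difference of female minus male was -0.154 percentage points with a Newcombe interval for counting error from -0.766 to 0.400, which includes 0. With at least 5 gate UMIs the shares were 0.707% and 0.680%, so that their order turned. Members held 155356 and 134877 UMIs in all, at a median depth of 2714 and 3005.5, and their depth ran from 854 to 10145 UMIs in the female and from 547 to 13243 UMIs in the male library. They were compared with T cells (at least 2 UMIs over the 3 Cd3 genes, 941 and 474 cells, median 4167 and 4198.5 UMIs) and with NK cells (at least 2 UMIs over Ncr1 and Klre1, 1032 and 417 cells, median 4413.5 and 4992 UMIs), all of which were deeper than the members at the median. Of these comparison cells, 277 and 116 met both definitions. The 2 libraries shared 2 cell barcodes and none of them was a member. Xist was found in 31 of the 46 female members and in 0 male members, and at least 1 of 4 genes of the Y chromosome (Ddx3y, Eif2s3y, Kdm5d or Uty) in 14 of the 34 male members and in 0 female ones.

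Before the exclusions, 138 and 82 cells reached 3 gate UMIs, and 92 and 48 of them met at least 1 exclusion. Cells with Cd3 UMIs made up the largest group, with 45 and 24 cells, followed by cells with NK receptor UMIs (32 and 19). Members on the border of the gate, with exactly 3 gate UMIs, numbered 9 in each library. Just outside it, 19 and 21 cells had 2 gate UMIs and met every other criterion. Of these cells, 6 and 6 inside the border and 8 and 8 outside it had at most 3 UMIs of the lysozyme gene Lyz2. Levels are given as CPM, that is, counts scaled to a common total of UMIs for each class and library. In these cells the level of Il7r, the IL-7 receptor, was 1216 and 953 CPM inside and 893 and 355 CPM outside the border, and the level of the transcription factor gene Rora was 243 and 173 CPM inside and 0 and 88.8 CPM outside. The Il7r levels rested on 20 and 11 UMIs inside and on 24 and 4 outside. The Rora levels rested on only 4 and 2 UMIs inside and 0 and 1 outside, too few to show a difference across the border. Cd74, an MHC class II gene of antigen-presenting cells, was at 243 and 2252 CPM inside and at 18560 and 266 CPM outside the border, and the part of such cells in the Il7r and Rora levels was not tested.

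The label was checked with 12 markers that the gate did not use (Rora, Il7r, Icos, Il5, Il13, Klrg1, Areg, Cxcr6, Nmur1, Ptgdr2, Hlf and Thy1), and the members split into 2 sorts of cell by Lyz2, a gene of myeloid cells. In 36 of the 46 female and 28 of the 34 male members, 0 to 2 Lyz2 UMIs were counted, while the other 10 and 6 members had 4 to 244 and 7 to 140 Lyz2 UMIs. Il7r was detected in 30 of the 36 and 25 of the 28 members with few Lyz2 UMIs, against 1 of the 10 and 1 of the 6 members with many. The 64 members with at most 3 Lyz2 UMIs are called ILC2-like cells in what follows. Of the 12 markers, 7 had UMIs in them in both libraries, Il5 in the male and Nmur1 in the female library only, and Il13, Areg and Ptgdr2 in neither, and 4 (Rora, Il7r, Klrg1 and Hlf) were above both T and NK cells by the measure given further on. Of these, Hlf against both classes and Klrg1 against T cells passed the level filter through the ILC2-like cells alone and could only come out higher, so that Rora and Il7r remain as markers free of this limit. Against a narrowed set of 591 and 321 T cells, with Il7r at 632 and 393 CPM, the female Il7r difference fell short of 2-fold. The bound on Lyz2 was chosen after the Lyz2 counts had been seen.

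Most of the 16 members with at least 4 Lyz2 UMIs went against the label, and all 16 are called Lyz2-high members only. The exception was a female cell with 11 Lyz2 UMIs, which had 2 Gata3, 4 Il1rl1, 2 Il7r, 2 Rora and 1 Il2ra UMIs and 0 Cd74 UMIs. A male cell with 18 Lyz2 UMIs was mixed, with 3 Gata3 and 1 Il7r UMIs beside 223 Cd74 UMIs and 0 Il1rl1 UMIs. In 9 of 10 and 5 of 6 of the Lyz2-high members, Il1rl1 was the only gate gene with a UMI. They carried 1837 and 1578 UMIs of the 4 MHC class II genes Cd74, H2-Aa, H2-Ab1 and H2-Eb1, from 1 to 536 per female and from 93 to 522 per male cell, while the ILC2-like cells carried 22 and 61 in all. At least 3 UMIs of Cd209a, a lectin gene of a class of dendritic cells, were found in 5 and 1 of them, and at least 20 UMIs of Retnla, a gene of alternatively activated macrophages, in 4 and 4, with no cell in both sets. Although they were 21.7% and 17.6% of the members, the Lyz2-high members held 31.2% and 34.3% of the members' UMIs, so a sum over all 80 members mixes both sorts.

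**Figure D1:**
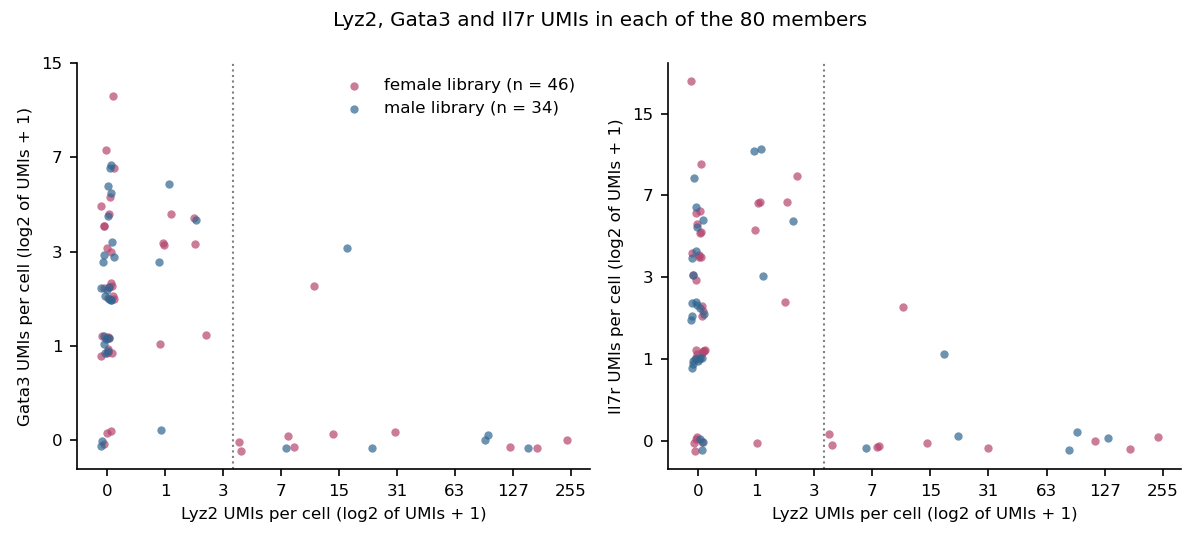
Each point is 1 of the 80 members, with its Lyz2 UMIs on the horizontal axis and its Gata3 (left) or Il7r (right) UMIs on the vertical axis, all as log2 of UMIs + 1 with a small random shift so that points do not hide each other; the dotted line lies between 3 and 4 Lyz2 UMIs, and Gata3 is a gate gene. Members right of the line had no Gata3 UMI (left) or Il7r UMI (right) except in 1 cell of each library.

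The members were compared with T and NK cells with and without the Lyz2-high members. A gene was counted as higher or lower where its level, as log2 of CPM + 10, differed at least 2-fold in the same direction in both libraries and both intervals of the ratio of counts excluded 1. Summed over all 80 members, 345 of 5881 genes (5.87%) were higher and 163 (2.77%) lower than in T cells, and 309 of 6019 genes (5.13%) were higher and 191 (3.17%) lower than in NK cells. The genes furthest above both were myeloid ones, led by Fn1, Lyz1, Cd209a, Ear2 and Retnla, and 10 of the 15 leading genes were not among the 15 leading genes of the ILC2-like cells. Over the 64 ILC2-like cells alone, 171 of 5779 genes (2.96%) were higher and 138 (2.39%) lower than in T cells, and 172 of 5926 genes (2.9%) were higher and 181 (3.05%) lower than in NK cells. Higher than in both were 139 genes and lower than in both 102, and 87 and 77 of these were also so over all 80 members. Both comparisons share the ILC2-like cells, and neither is independent of the gate that set the cells apart. The median log2 difference over all genes was 0.13 and 0.08 against T cells and 0.05 and -0.01 against NK cells.

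**Figure D2:**
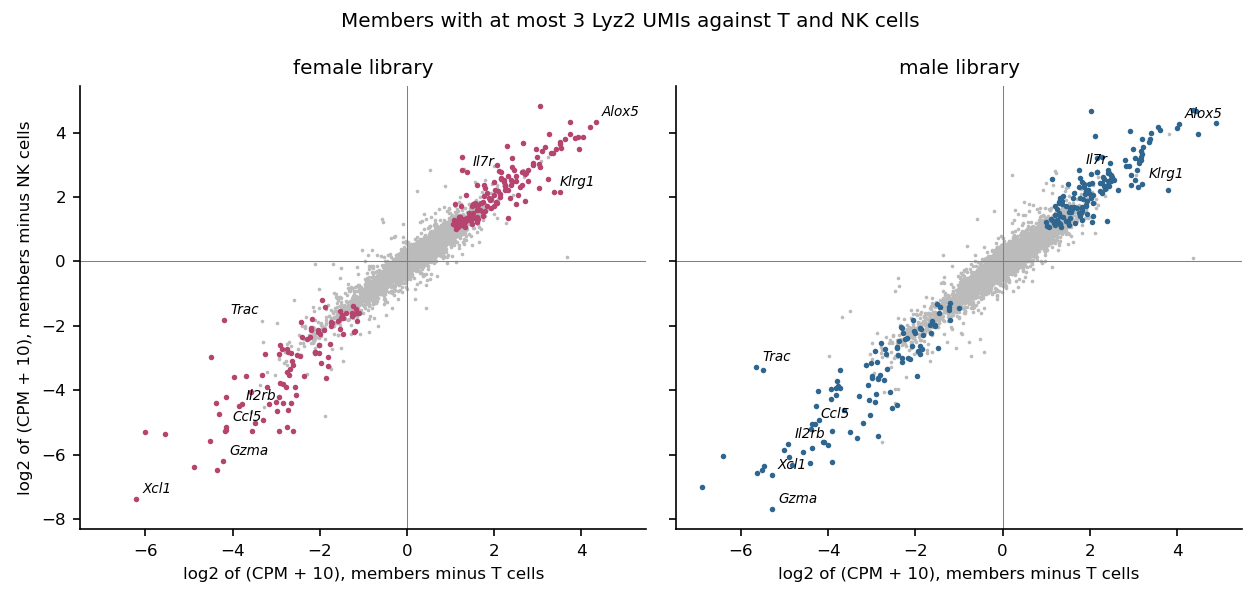
Each point is a gene, with the log2 difference of CPM + 10 between ILC2-like cells (members with at most 3 Lyz2 UMIs) and T cells on the horizontal axis and between ILC2-like and NK cells on the vertical axis, 1 panel per library; both axes share the ILC2-like cells. Coloured points are the 139 genes higher and 102 genes lower than in both T and NK cells, and grey points are all other genes.

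Gata3, Il1rl1 and Il17rb are described first, without a comparison, since UMIs of the gate genes chose the cells. Gata3 (chr2:9857078-9890034, minus strand, all positions on GRCm38) was counted at 95 and 73 UMIs in 33 and 25 ILC2-like cells, which was 889 CPM (719 to 1087) and 824 CPM (646 to 1036). Il1rl1 (chr1:40429570-40465415, plus strand) had 97 and 69 UMIs in 33 and 22 cells, at 908 CPM (736 to 1107) and 779 CPM (606 to 986). Il17rb (chr14:29996135-30008896, minus strand) was in fewer cells, 6 and 3, with 11 and 4 UMIs. Most cells did not rest on a single gene: 34 of 36 and 25 of 28 ILC2-like cells had UMIs of at least 2 gate genes. Il1rl1 and Gata3 were found together in 30 and 20 cells. The gate sum had a median of 6 UMIs in each library and a maximum of 21 and 18.

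Since Il1rl1 was the gate gene that both sorts of member carried and GATA3 binds DNA at short motifs around the letters GATA, upstream sequence from the RefSeq promoter table (build GRCm38.p6) is shown for the gate gene and for the leading genes that held such letters. The motifs AGATAA and TGATAA were searched on both strands, so that they also appear as TTATCT and TTATCA, in windows from 250 bases before to 50 bases after each start. They were in 6115 of all 32851 windows (18.6%). Of the 15 leading genes of the ILC2-like cells given further on, 12 had an entry, and 2 of their 14 windows held a motif (14.3%), those of Il9r and Lpcat2. Of the gate genes, 3 had an entry, and 2 of their 4 windows held a motif, both of Il1rl1, while the windows of Gata3 and Il17rb did not. The 250 bases before each start are printed 5′ to 3′ on the strand of the gene, with the motifs in capitals.
Il1rl1 upstream window, chr1:40429320-40429569, plus strand: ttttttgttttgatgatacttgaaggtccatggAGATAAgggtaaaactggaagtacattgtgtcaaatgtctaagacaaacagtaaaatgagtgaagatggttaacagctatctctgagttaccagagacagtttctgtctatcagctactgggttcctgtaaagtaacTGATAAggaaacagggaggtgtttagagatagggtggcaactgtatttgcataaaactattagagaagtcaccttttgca
Il1rl1 upstream window, chr1:40439379-40439628, plus strand: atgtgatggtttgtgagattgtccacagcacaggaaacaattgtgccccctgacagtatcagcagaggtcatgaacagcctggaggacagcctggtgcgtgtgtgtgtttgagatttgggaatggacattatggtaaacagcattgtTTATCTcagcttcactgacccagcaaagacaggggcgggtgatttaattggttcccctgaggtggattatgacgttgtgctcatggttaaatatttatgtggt
Lpcat2 upstream window, chr8:92855083-92855332, plus strand: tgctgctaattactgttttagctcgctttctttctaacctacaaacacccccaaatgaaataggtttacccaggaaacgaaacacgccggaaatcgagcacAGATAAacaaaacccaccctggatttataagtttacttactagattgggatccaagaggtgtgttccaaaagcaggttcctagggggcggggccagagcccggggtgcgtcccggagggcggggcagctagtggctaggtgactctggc
Il9r upstream window, chr11:32200280-32200529, minus strand: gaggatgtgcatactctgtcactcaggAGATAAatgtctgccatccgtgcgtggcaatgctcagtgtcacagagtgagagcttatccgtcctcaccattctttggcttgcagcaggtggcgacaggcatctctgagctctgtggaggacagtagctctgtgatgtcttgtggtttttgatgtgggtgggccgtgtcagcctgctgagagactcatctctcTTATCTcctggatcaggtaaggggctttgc
In the first Il1rl1 window the motifs began 217 and 80 bases before the start, and in the window of its other start, about which the 3′ counts say nothing, 103 bases before. In Il9r they began 223 and 30 bases, and in Lpcat2 149 bases before the start. The share of windows with a motif among the leading genes was thus close to that over all windows, and no binding was measured.

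Most transcription factor genes of the list for ILC2 development met no threshold against T cells. A gene could pass the level filter through the ILC2-like cells alone, and such a gene was bound to be above the comparison class on average, so that counts and medians over a list are a description. Of 14 of the 18 listed genes that passed the level filter, 3 of them in that way, 4 were higher and 1 lower than in T cells, with a median log2 difference of 0.70 and 0.22, and 5 of 13 were higher than in NK cells, with a median of 1.26 and 0.56. Over all genes, 2.96% were higher and 2.39% lower than in T cells and 2.9% higher than in NK cells. Rora (chr9:68653786-69388246, plus strand), which ILC2s need to develop, was at 384 CPM (275 to 520.4) and 136 CPM (70.0 to 237), against 51.9 and 49.4 CPM in T and 20.6 and 30.9 CPM in NK cells. Its ratio to T cells was 7.39-fold (5.17 to 10.3) and 2.74-fold (1.37 to 4.99). Hlf, a PAR bZIP factor gene, had 12 and 5 UMIs in 6 and 3 cells, at 112 and 56.4 CPM against 0.646 and 3.73 CPM in T cells. Pparg, a nuclear receptor of lipid metabolism, had 7 and 2 UMIs and was also above T and NK cells in both libraries. Hlf and Pparg had passed the filter against both classes through the ILC2-like cells alone and could only come out higher. Nfkb1 was 3.20-fold (2.21 to 4.49) and 3.12-fold (2.06 to 4.57) higher than in T cells. Bcl11b, shared by T cells and ILC2s, was at 206 and 169 CPM, close to T cells (174 and 196 CPM), and 5.53-fold (3.39 to 8.59) and 3.34-fold (1.81 to 5.74) above NK cells. Tcf7, the TCF-1 gene of naive T cells and early progenitors, was lower, with 6 and 2 UMIs and 0.276 (0.101 to 0.603) and 0.133 (0.0160 to 0.484) times the T cell level. Id2, the inhibitor of E proteins that all innate lymphoid cells express, was at 2283 and 1558 CPM against 1063 and 1296 CPM in T and 1479.8 and 1773 CPM in NK cells and met neither threshold.

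Receptors for cytokines and lipid mediators were in part above both comparison classes. Of 14 listed genes that passed the filter, 7 were higher and 1 lower than in T cells, with a median log2 difference of 1.34 and 1.33, and 8 were higher and 1 lower than in NK cells, with a median of 1.75 and 2.25, beside 2.96% higher and 2.39% lower of all genes against T and 2.9% and 3.05% against NK cells. Of these higher genes, 5 against T and 6 against NK cells had passed the filter through the ILC2-like cells alone. Il7r (chr15:9505788-9530176, minus strand) was at 1198 CPM (999 to 1424) and 982 CPM (787 to 1211), against 458 and 284 CPM in T and 166 and 129 CPM in NK cells, with ratios to T cells of 2.62-fold (2.17 to 3.13) and 3.45-fold (2.73 to 4.33). In the narrowed T cells Il7r was at 632 and 393 CPM. Against these cells the female difference fell short of 2-fold, and Il7r no longer counted as higher. Il2ra (chr2:11642807-11693193, plus strand), the alpha chain of the IL-2 receptor, had 37 and 37 UMIs in 21 and 17 cells and was 11.7-fold (7.88 to 16.9) and 13.8-fold (8.95 to 20.9) above T cells. The beta chain gene Il2rb was the one that was lower, with 3 and 1 UMIs against 540.1 and 632 CPM in T and 846 and 1082 CPM in NK cells, while the shared gamma chain gene Il2rg, at 421 and 485 CPM, met neither threshold against T cells. Against NK cells, Il2ra passed the filter through the ILC2-like cells alone.

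For the next 4 receptors, Klrg1, Tnfrsf25, Il9r and Kit, values are given against T cells as a description, since each passed the level filter there through the ILC2-like cells alone and could only come out higher. Klrg1, an inhibitory lectin receptor of mature ILC2s and effector lymphocytes, had 23 and 27 UMIs in 15 and 14 cells, 18.2-fold (10.7 to 30.1) and 12.6-fold (7.59 to 20.4) above T and 5.26-fold (3.27 to 8.10) and 6.17-fold (3.89 to 9.46) above NK cells. Tnfrsf25, the receptor of the TNF-family ligand TL1A, was at 65.5 and 124 CPM against 14.9 and 20.1 CPM in T cells. Il9r (chr11:32187541-32200279, minus strand) had only 10 and 6 UMIs, but in 8 and 5 cells, and T cells were at 3.23 and 0.466 CPM. Kit, the stem cell factor receptor, had 6 and 10 UMIs, at 56.1 and 113 CPM against 3.23 and 4.20 CPM in T cells. Icos, the costimulatory receptor, was 11.0-fold (6.43 to 18.0) and 6.54-fold (3.04 to 12.9) above NK cells, while its 187 and 124 CPM against 69.1 and 61.1 CPM in T cells did not meet the threshold. Against NK cells Icos had passed the filter through the ILC2-like cells alone and could only come out higher, so its fold there is a description. Some receptors known from ILC2s elsewhere gave no UMI: Ptgdr2, which encodes the prostaglandin D2 receptor CRTH2, and Tnfrsf4 were at 0 in the ILC2-like cells of both libraries, where 3 UMIs would be 28.1 and 33.9 CPM. Ptgdr2 had 0 UMIs over all kept cells of both libraries, while Tnfrsf4 had 45 and 35 UMIs in other cells. Crlf2 and Il18r1, the receptor chains for TSLP and IL-18, had 9 and 2 and 10 and 1 UMIs and met neither threshold.

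Transcripts of the type 2 cytokines themselves were rare. Il13, Il9 and Areg were at 0 UMIs in the ILC2-like cells of both libraries, and over all kept cells Il13 had 6 and 0, Areg 2 and 0 and Il9 0 and 0 UMIs. Il5 (chr11:53720794-53725106, plus strand) was at 0 in the female cells and had 5 UMIs in 3 of the 28 male cells, with 3, 1 and 1 UMIs. These 5 were among the 6 Il5 UMIs of all 2502 male cells, while the 6 Il5 UMIs of the female library were all outside the members. Il4 had 2 and 2 UMIs, and Il2 4 and 3. Of the 9 listed cytokine and effector genes that passed the filter, 5 were higher than in T and 4 higher than in NK cells, and 0 were lower, beside 2.96% and 2.9% of all genes that were higher. Of these higher genes, 4 against T and 4 against NK cells had passed the filter through the ILC2-like cells alone.

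Of the genes of that list that were higher, Csf2, the gene of GM-CSF, had 9 and 9 UMIs in 5 and 7 cells and was 9.54-fold (4.08 to 19.9) and 9.47-fold (3.86 to 21.2) above T cells. Csf1 and Tnfsf11, the genes of M-CSF and RANKL, ligands that macrophages and osteoclasts respond to, had 6 and 6 and 6 and 10 UMIs and were above both classes. Csf2, Csf1, Tnfsf11 and Calca had passed the filter against both classes through the ILC2-like cells alone and could only come out higher. The levels were 56.1 and 67.7 CPM for Csf1 against 4.09 and 7.46 CPM in T cells, and 56.1 and 113 CPM for Tnfsf11 against 4.74 and 5.60 CPM in T cells. Furin, a protease that processes precursor proteins, was 2.56-fold (1.15 to 4.98) and 4.09-fold (2.08 to 7.41) above T cells. Calca (chr7:114631478-114636357, minus strand), the gene of the neuropeptide CGRP and of calcitonin, had 5 and 19 UMIs, but they came from only 2 cells in each library, with 4 and 1 UMIs in the female and 12 and 7 in the male cells. T cells had 0 Calca UMIs, and no fold is given, since the UMIs of so few cells set the level. Calca was not particular to these cells. Of the 26 and 33 Calca UMIs of all kept cells, cells with at least 3 mast cell UMIs held 19 and 0, and NK cells 0 and 10.

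Receptors for neuropeptides and steroids were expressed in part of the cells. Of 14 listed genes, 7 had no UMI (Ramp3, Vipr1, Adra2a, Chrna7, Nr3c2, Esr1 and Pgr), and Nmur1, the neuromedin U receptor by which ILC2s of the gut and lung sense neurons, had 1 and 0 UMIs. Ramp1, a subunit of the CGRP receptor, had 47 and 23 UMIs in 21 and 18 cells and was 5.83-fold (4.21 to 7.93) and 4.42-fold (2.70 to 6.93) above T cells, while its partner Calcrl had 7 and 2 UMIs and met neither threshold. Nr3c1, the glucocorticoid receptor gene, was at 178 and 192 CPM, against 86.6 and 99.8 CPM in T cells, where it did not meet the threshold, and 67.8 and 87.4 CPM in NK cells, where it did. Of 8 glucocorticoid-induced genes that passed the filter, 0 were higher or lower than in T cells, beside 2.96% and 2.39% of all genes, so that a count of 0 among 8 says nothing about the list, and 1 (Sgk1) was higher than in NK cells, having passed the filter through the ILC2-like cells alone. The value of Tsc22d3, the gene of GILZ, was 365 and 372 CPM against 213 and 169 CPM.

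Genes of homing and residence in tissue moved in both directions. Of 20 listed genes that passed the filter, 5 were higher and 5 lower than in T cells, and of 18, 7 were higher and 3 lower than in NK cells, beside 2.96% and 2.39% of all genes against T and 2.9% and 3.05% against NK cells. Of the higher genes, 1 against T (Ccr8) and 3 against NK cells (Ccr8, Ccr9 and Gpr183) had passed the filter through the ILC2-like cells alone. Ccr2, the receptor for the monocyte chemokine CCL2, was at 1113 CPM (922 to 1332) and 858 CPM (676 to 1074), 6.83-fold (5.58 to 8.30) and 5.51-fold (4.24 to 7.09) above T cells, and was found in 30 and 21 cells. Ly6a, which encodes Sca-1, was at 674 and 1276 CPM, 2.45-fold (1.90 to 3.10) and 4.15-fold (3.37 to 5.08) above T cells and 10.9 and 31.8-fold above NK cells. In the narrowed T cells Ly6a was at 360.4 and 426.6 CPM. Against these cells the female difference fell short of 2-fold, and Ly6a no longer counted as higher. In a narrowed set of 587 and 242 NK cells Ly6a was at 10.97 and 14.97 CPM, so that the folds over NK cells were larger there. Ccr9, the receptor that guides lymphocytes to the gut, had 39 and 17 UMIs in only 7 and 4 cells, with up to 12 and 8 in 1 cell. Of the 5 genes that were lower than in T cells, Ccr7, S1pr1 and Klf2 belong to lymphocytes that recirculate, while Itga1, with 1 and 0 UMIs, encodes an integrin chain of resident lymphocytes. Klf2, which drives S1pr1, was 0.196 (0.0843 to 0.386) and 0.333 (0.152 to 0.636) times the T cell level, and Ccr7 and S1pr1 had 2 and 0 and 2 and 1 UMIs. Cxcr6, a receptor of resident lymphocytes and one of the 12 markers, was at 346 and 349.9 CPM against 254 and 359 CPM in T cells and did not meet the threshold, and Thy1 was likewise at 196 and 158 CPM against 367 and 424 CPM.

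**Figure D3:**
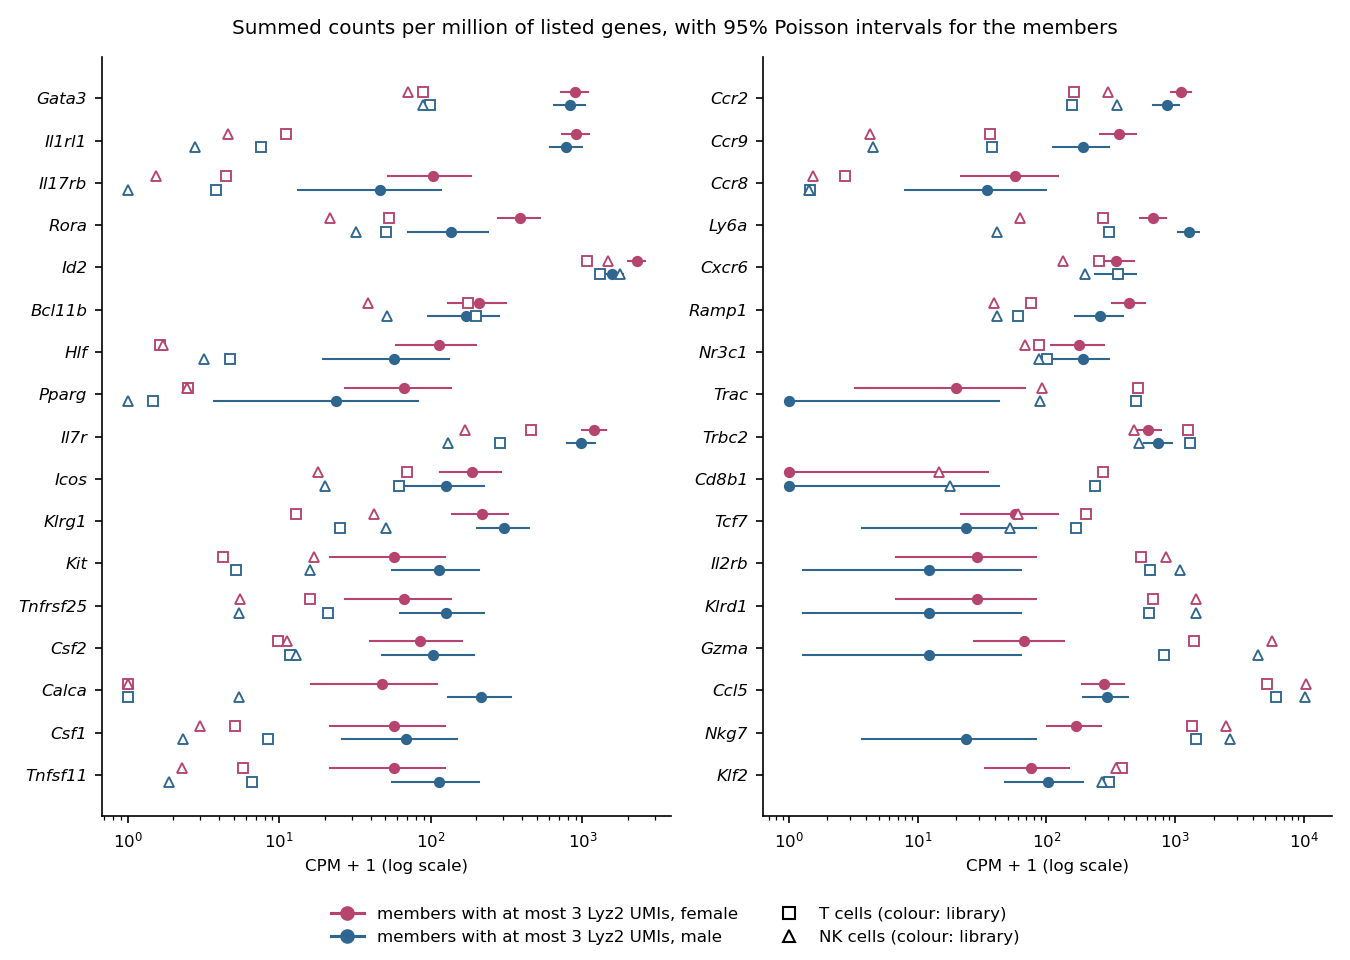
Levels of 34 listed genes as CPM + 1 on a log axis. Filled circles with bars are the ILC2-like cells (members with at most 3 Lyz2 UMIs) and their 95% Poisson intervals, squares are T cells and triangles NK cells, and red and blue stand for the female and male library. Il7r lies above T and NK cells in both libraries (1198 and 982 CPM), and Trac and the NK genes lie below.

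Transcripts of T cell receptor loci were present in part. Cd3 genes were held to at most 1 UMI by the gate, and such a UMI was found in 5 members of each library. Trac, the constant region of the alpha chain, which the gate did not use, had 2 and 0 UMIs in 64 cells, against 516 and 493 CPM in T cells. Cd4, Cd8a, Cd8b1, Cd5 and Foxp3 were at 0. By contrast Trbc2 had 65 and 65 UMIs in 29 and 21 of the ILC2-like cells, at 608 CPM (469 to 775) and 734 CPM (566 to 935) against 1255 and 1296 CPM in T and 474 and 519.8 CPM in NK cells, and Trbc1 had 43 and 14 UMIs. Tcrg-C1 (chr13:19214103-19217024, plus strand), a constant region of the gamma chain, was above both classes, with 71 and 57 UMIs in 18 and 11 cells, 10.9-fold (8.25 to 14.1) and 8.41-fold (6.11 to 11.4) above T and 19.9 and 21.8-fold above NK cells. In the narrowed classes Tcrg-C1 was at 58.4 and 90.95 CPM in T and at 21.58 and 13.4 CPM in NK cells, so that the folds over NK cells were larger there. Its UMIs were uneven, with up to 17 and 21 in 1 cell. Trdc, the delta chain constant region, had 1 and 0 UMIs. The constant regions of the beta and of the gamma locus have near-identical copies (Trbc1 and Trbc2, Tcrg-C1 and Tcrg-C2), between which the counting may have divided reads. Of the 14 T cell genes that passed the filter, 10 were lower than in T cells and 1 was higher, beside 2.39% and 2.96% of all genes.

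Genes of NK cells and type 1 innate lymphoid cells were the group furthest below. All 15 listed genes were lower than in NK cells, with a median log2 difference of -5.26 and -6.09, and 14 of 14 were lower than in T cells, beside 3.05% and 2.39% of all genes that were lower. Of the T cells, 29.4% and 24.5% also met the NK definition. Members had been chosen to lack Ncr1 and Klre1, which travel with these genes. Ccl5, a chemokine gene of cytotoxic lymphocytes, had 30 and 26 UMIs, at 281 and 294 CPM against 10363 and 10161 CPM in NK cells. Gzma, which encodes granzyme A, had 7 and 1 UMIs against 5602 and 4388 CPM in NK cells. Klrb1c, the gene of the receptor NK1.1, was at 0 UMIs, at least 29.5 and 23.4-fold lower than in NK cells. Eomes, Tbx21, Prf1 and Ifng were also at 0. Of the genes of type 3 innate lymphoid cells, Il22, Il17a, Il17f and Il23r had 0, while Ltb, the gene of lymphotoxin beta, had 103 and 130 UMIs and was 2.50-fold (2.03 to 3.04) and 3.20-fold (2.65 to 3.85) above NK cells. The gate and the bound on Lyz2 had limited the counts of other cell types beforehand, and within these limits the list of macrophage and monocyte genes had 73 and 49 UMIs in all and at most 16 and 6 in 1 cell, the list of B cell genes 25 and 18, and the 8 mast cell and basophil genes 0.

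Over all genes outside the gate, the 15 furthest above both T and NK cells in both libraries included Alox5, Slc7a8, Ccdc184, Rnf128, Ltb4r1, Lpcat2, Pcsk1, Il2ra, Cysltr1, Ptpn13, Lmna, Tcrg-C1, Il9r and Pard3, of which several had also been listed. They were picked for these differences, and 13 of the 15 against T and 14 of the 15 against NK cells had passed the level filter through the ILC2-like cells alone, so that their values are a description. Of the list for lipid and amino acid metabolism, 2 of 10 genes that passed the filter (Alox5 and Slc7a8) were higher than in T cells and 2 of 9, again these, higher than in NK cells, and 0 were lower, beside 2.96% and 2.9% of all genes that were higher. Alox5 (chr6:116410077-116461178, minus strand), 5-lipoxygenase, the enzyme that starts leukotriene synthesis, had 25 and 17 UMIs in 13 and 12 cells, at 234 CPM (151 to 345) and 192 CPM (112 to 307) against 2.15 and 2.33 CPM in T and 2.17 and 0.441 CPM in NK cells. Ltb4r1 (chr14:55765962-55768494, plus strand), a receptor of leukotriene B4, had 30 and 25 UMIs in 22 and 15 cells and was 23.7-fold (14.7 to 37.6) and 18.9-fold (10.8 to 32.9) above T cells. Cysltr1 (chrX:106574346-106603679, minus strand), the receptor of cysteinyl leukotrienes, had 18 and 10 UMIs and was 25.2-fold (13.3 to 46.5) and 30.3-fold (10.8 to 88.2) above T cells. Lpcat2 (chr8:92855339-92919279, plus strand), an enzyme of platelet-activating factor synthesis, had 30 and 25 UMIs and was 31.8-fold (19.2 to 52.2) and 33.6-fold (17.6 to 65.4) above T cells. Alox5ap, the gene of the protein that presents arachidonic acid to 5-lipoxygenase, had 0 UMIs in the ILC2-like cells and 53 and 46 in the 16 Lyz2-high members. For Alox5ap a floor of 3 UMIs was 28.1 and 33.9 CPM.

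The remaining leading genes have varied roles. Slc7a8 (chr14:54722209-54781946, minus strand), an exchanger of neutral amino acids, had 21 and 24 UMIs in 13 and 16 cells, at 196 and 271 CPM against 3.66 and 3.73 CPM in T cells. Ccdc184 (chr15:98167158-98170134, plus strand), which encodes a coiled-coil protein, was at 215 and 316 CPM against 3.66 and 0.933 CPM in T and 5.61 and 6.62 CPM in NK cells. Rnf128 (chrX:139563316-139673145, plus strand), the ubiquitin ligase GRAIL, was at 215 CPM (136 to 323) and 485 CPM (351 to 654) and 38.4-fold (20.9 to 70.1) and 37.2-fold (22.6 to 62.1) above T cells. Pcsk1 (chr13:75089826-75134861, plus strand), a convertase that cuts prohormones, had 14 and 8 UMIs in 11 and 4 cells, at 131 and 90.3 CPM against 1.51 and 0.933 CPM in T cells. Some of the leading genes were also counted in macrophages (at least 6 UMIs over the C1q genes), where Lpcat2 was at 175 and 202 CPM, Cysltr1 at 73.2 and 77.5 CPM, Slc7a8 at 53.9 and 83.7 CPM, Lmna at 36.01 and 48.67 CPM and Alox5 at 31.1 and 25.4 CPM, and the others were below 10 CPM. Cells with at least 3 mast cell UMIs held 64 and 8 of the 322 and 151 Alox5 UMIs, and members 26 and 17. In B cells (at least 2 Cd79a UMIs) Lmna was at 28.63 and 40.35 CPM, Lpcat2 at 19.24 and 22.7 CPM and Il9r at 10.74 and 12.61 CPM.

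**Figure D4:**
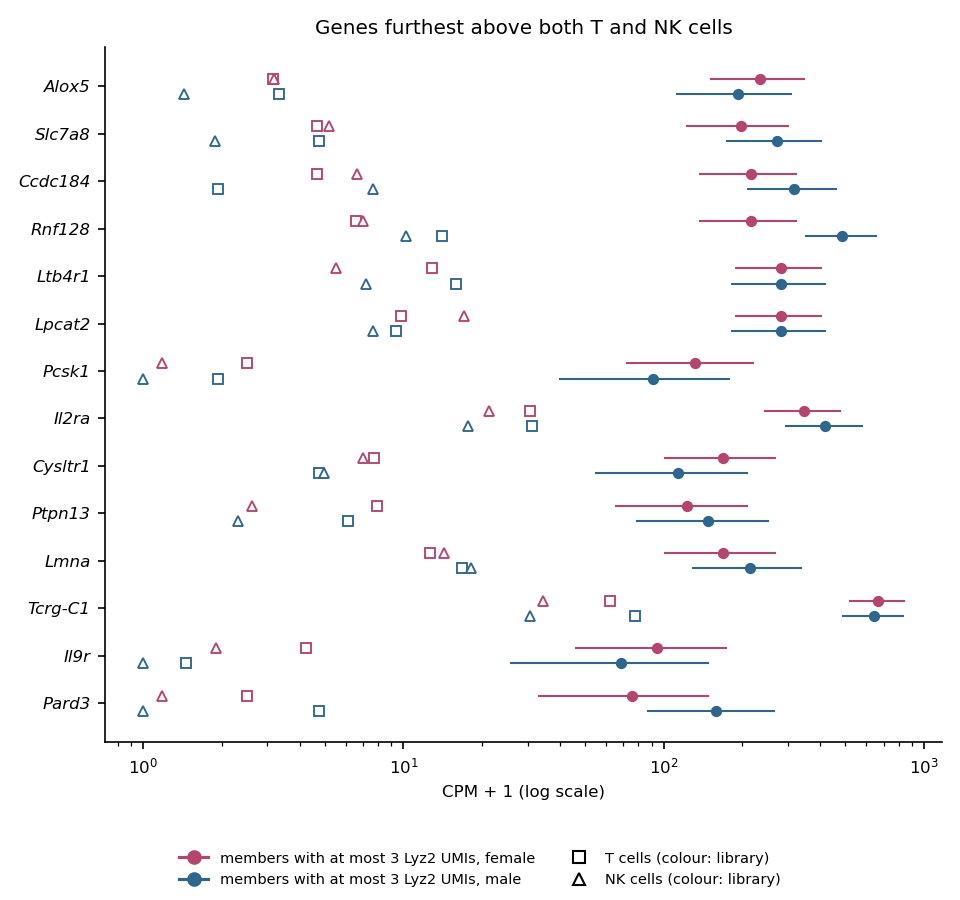
Levels of 14 of the 15 leading genes as CPM + 1 on a log axis, with filled circles for ILC2-like cells (members with at most 3 Lyz2 UMIs) and bars for 95% Poisson intervals, squares for T cells and triangles for NK cells, in red for the female and blue for the male library. Every ILC2-like value of these genes lies right of the T and NK values of its library, for example Tcrg-C1 at 664 and 643 CPM.

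Although members were only 1.21% and 1.36% of the cells, they held a large part of the UMIs of some genes. Of genes the gate did not use, and over all kept cells of a library, members held 14 of 35 (40.0%, 23.9 to 57.9) and 8 of 12 (66.7%, 34.9 to 90.1) of the Pcsk1 UMIs and 24 of 85 (28.2%, 19.0 to 39.0) and 29 of 56 (51.8%, 38.0 to 65.3) of the Ccdc184 UMIs. Most Gata3 UMIs lay elsewhere, since members held 97 of 820 (11.8%, 9.70 to 14.2) and 76 of 470 (16.2%, 13.0 to 19.8), and T and NK cells the larger part. Il1rl1 UMIs were shared with mast cells, as members held 27.5 and 33.2%, and cells with at least 3 mast cell UMIs 151 and 26 of the 506 and 262 UMIs. For other genes that the gate did not use the share was 12.2 and 23.1% for Il2ra, 15.5 and 22.3% for Tcrg-C1, 9.29 and 5.24% for Rora and 4.31 and 8.81% for Il7r.

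To compare the share of cells with a UMI between classes of unequal depth, 1000 UMIs were drawn from each cell, which left 35 and 27 ILC2-like cells. Il7r was then found in 65.7% (47.8 to 80.9) and 59.3% (38.8 to 77.6) of ILC2-like cells, 31.8% and 22.5% of T cells and 1.27% and 0% of B cells (at least 2 Cd79a UMIs, median 2394.5 and 1835 UMIs), which served as the background from free RNA. Klrg1 was found in 28.6% (14.6 to 46.3) and 22.2% (8.62 to 42.3) against 1.82% and 2.15% of T cells. Trbc2 was in 48.6% (31.4 to 66.0) and 48.1% (28.7 to 68.0) of ILC2-like cells, 63.4% and 66.3% of T, 29.2% and 28.1% of NK and 2.73% and 1.53% of B cells, so that its share among ILC2-like cells lay between NK and T cells and far above the share in B cells. Ly6a was widespread, as 30.9% and 33.2% of B cells had a UMI. Without the draw, Il7r was in 83.3% and 89.3% of ILC2-like cells, Klrg1 in 15 of 36 and 14 of 28 and Trbc2 in 80.6% and 75.0%.

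Among themselves the ILC2-like cells varied most in abundant genes. By the variance over the mean of the drawn counts, taken as the lower of the 2 libraries, Malat1, a nuclear noncoding RNA, came first with 9.31 and 7.89, followed by Crip1, a LIM-domain protein gene, with 8.08 and 5.60, while the median over 972 genes was 0.885. Hmgb2, a chromatin protein gene that rises in dividing cells, reached 6.00 and 2.69 with a UMI in only 20.0% and 22.2% of the cells. The list of 8 cell cycle genes had 17 and 52 UMIs, and 46 of the 52 came from 1 male cell. Rnf128 was at 2.14 and 2.10 and lay in 17.1% and 37.0% of the cells. At a draw of 2000 UMIs, 7 of the 10 most variable genes were shared with those at 1000 UMIs, and neither Hmgb2 nor Rnf128 was among them. Klrg1 and Icos were found together in 3 and 2 cells, Klrg1 without Icos in 12 and 12, and Icos without Klrg1 in 6 and 5.

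Between the libraries, few of the differing genes met a bound on the share of UMIs held by 5 cells. Among the ILC2-like cells, 59 of 2988 genes (1.97%) were higher and 63 (2.11%) lower in the female library, and after genes with more than 50% of their UMIs in 5 cells were set aside, 11 and 5 were left. A gene with few UMIs exceeds this bound even where each UMI lies in a separate cell. The bound thus also sets aside genes of low count and does not measure spread alone. Over all 80 members, 71 of 3026 genes (2.35%) were higher and 64 (2.12%) lower, and 26 and 30 of them were among those of the ILC2-like cells. For Il7r the ratio of the female to the male level was 1.22 (0.921 to 1.62), an interval that includes 1, which does not show that the levels were equal. For Il2ra the ratio was 0.829 (0.511 to 1.34), for Klrg1 0.706 (0.387 to 1.28) and for Alox5 1.22 (0.632 to 2.40).

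Of 87 genes of the lists outside the gate that passed the level filter between libraries, 9 (10.3%) were higher in the female library (Il18r1, Rgs1, Fcer1g, Trbc1, Fosb, Nkg7, Rora, Gpr183 and Dusp1) and 7 (8.05%) lower (Pcna, Stmn1, Bhlhe40, Calca, Ccl1, H2-Aa and Cd74), beside 1.97% and 2.11% of all genes. Each of these 16 genes had more than 50% of its UMIs in the higher library in 5 cells, and 0 of them are among the 11 and 5 genes that met the bound. For genes with few UMIs such a share is unavoidable and says nothing about spread. Of the listed transcription factor genes, only Bhlhe40 and Rora are among these 16. Bhlhe40, a stress-responsive repressor, had 4 and 14 UMIs, and of this pair only Rora was also counted as higher than in T cells. Rora had 41 and 12 UMIs in 18 and 10 of the ILC2-like cells, or 384 and 136 CPM, a ratio of 2.83 (1.46 to 5.92), while in T cells the ratio was 1.05 and in NK cells 0.667. The ratio of the ILC2-like ratio to that of T cells was 2.70 (1.36 to 5.34), and 10 of the 41 female UMIs were in 1 cell. Dusp1, a phosphatase gene of the early stress response, with 34 and 4 UMIs in 12 and 3 cells, and Rgs1, a regulator of chemokine receptor signals, with 25 and 2 UMIs in 8 and 2 cells, were also higher in the female library. Fos had 53 and 23 UMIs and a ratio of 1.91 (1.15 to 3.27) and did not meet the threshold. Rnf128 was lower in the female library, with 23 and 43 UMIs and a ratio of 0.443 (0.255 to 0.752), but T cells differed alike, with a ratio of 0.429. Ly6a, at 674 and 1276 CPM, had a ratio of 0.528 (0.387 to 0.716), just short of the threshold, against 0.896 in T cells.

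Of the genes spread over cells, Brd2, a reader of acetylated histones, was the furthest below in the female library. It had 3 and 17 UMIs in 3 and 15 cells and a ratio of 0.146 (0.0275 to 0.506), while T and NK cells were at 0.914 and 0.893. Slc25a3, the mitochondrial phosphate carrier, with 30 and 54 UMIs, was at 0.461 (0.284 to 0.733). The others that were lower were 1810037I17Rik and Gm2000 and Rpl9-ps6, of which the last pair resembles ribosomal protein genes closely enough that reads may have been divided, and Rpl9-ps6 was also lower in T cells (0.639). Among the genes that were higher, Ndufb6 and Ndufa1 encode subunits of respiratory complex I. Ndufb6 had 18 and 1 UMIs in 14 and 1 cells, a ratio of 14.9 (2.36 to 622), and Ndufa1 42 and 14 UMIs, a ratio of 2.49 (1.33 to 4.93). Anxa5, the annexin that binds phosphatidylserine, had 26 and 5 UMIs in 19 and 4 cells. In T and NK cells, the ratio of Ndufb6, Ndufa1 and Anxa5 lay between 0.908 and 1.19. With 1 library per sex, these differences cannot be told apart from differences between the libraries.

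**Figure D5:**
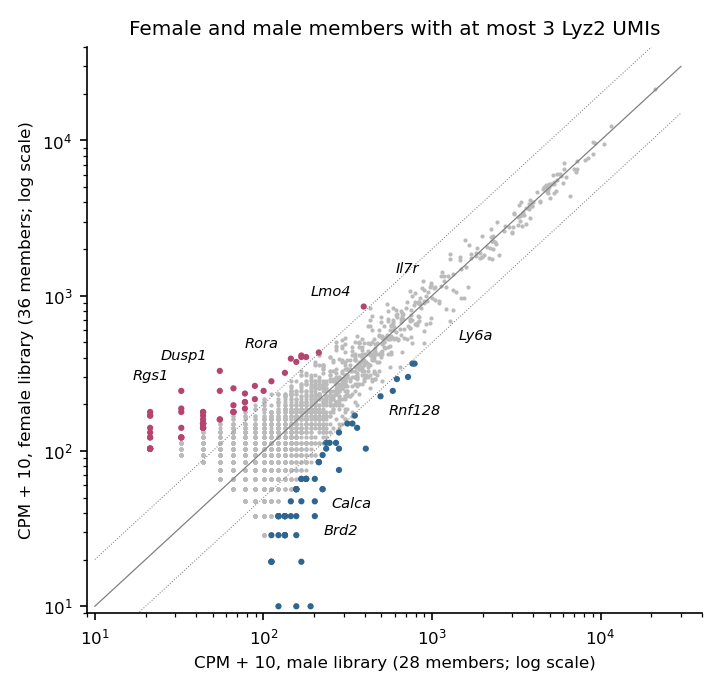
Each point is a gene in the ILC2-like cells (members with at most 3 Lyz2 UMIs), with its level in the male library on the horizontal and in the female library on the vertical axis, both as CPM + 10 on log axes. Dotted lines mark a 2-fold difference; the 59 genes higher in the female library are red, the 63 lower ones blue, and sex and library cannot be told apart.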

How the data were processed

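The authors sorted live CD45+ cells from adrenal glands, loaded them on the Chromium system (3′ kit) and, per the labels and the study's methods, aligned and counted reads with Cell Ranger 4.0.0 on the mouse genome mm10 and removed noise barcodes with DropletUtils 1.4.3. The deposited values are raw counts of UMIs per gene and barcode, 16218309 UMIs in 3963 female and 9512670 in 2685 male barcodes.

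From these counts, barcodes with at least 200 genes and at most 15% mitochondrial UMIs were kept, since the mitochondrial ceiling in the study's methods could not be matched to the deposited counts. Members and comparison classes were taken by the gates given above, and some genes are not reported here. Counts were summed per class and library and scaled to CPM. Genes with a mean of at least 20 CPM (50 CPM between libraries) were compared on log2 of CPM plus a pseudocount of 10, and genes used by the gate were left out of the counts. Shares carry Clopper-Pearson, CPM values Poisson and ratios exact conditional binomial intervals, all at 95% and for counting error only, and limits for 0 rest on 3 UMIs. The ratio of ratios carries a Wald interval on the log scale. PCR copies were removed by the UMIs.

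Named genes were the 21 lists of 252 genes (250 in the files), the 15 genes with the highest smallest and the 10 with the lowest largest difference over T and NK cells and both libraries, up to 8 genes per direction between libraries with at most 50% of UMIs in 5 cells, and the 10 most variable genes. The 15 genes also had to reach 50 CPM in members, while the 10 had no such bound. The members and the lists were chosen with earlier results of these data known. Simulated counts were made at the depth of all 80 members, with 50 genes changed at each size. Against T cells, 50 of 50 genes were recovered at 4-fold higher and 3 of 50 at 2-fold higher. At 2-fold lower, 21 of 50 were recovered. The ILC2-like cells were not simulated. Recovery of genes at low level, or with most UMIs in a few cells, was not tested. The 4-fold result thus does not extend to such genes. The Scrublet threshold marked 1 and 8 barcodes and was set aside as not working, and removing the 126 and 58 highest-scoring barcodes removed 0 members. Positions are from GENCODE M21 (GRCm38), where Gata3, Il2ra, Lpcat2, Cysltr1 and Pard3 overlap another gene of the same strand, so their counts are uncertain to that extent. Python 3.11.15, numpy 2.4.6, scipy 1.17.1, pandas 2.3.3 and scanpy 1.11.5 were used. Alternatives were other gates, filters, pseudocounts, scalings and comparison cells.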

Additional observations from a re-analysis of the deposited data

Results flagged for a closer look

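Some genes lay above T or NK cells in the members of one library and below them in the other, each by more than 2-fold on the log2 scale of CPM + 10 (values are female minus male of the log2 differences). With 1 library per sex the difference was not tested. In the ILC2-like cells, Pclaf, a DNA replication factor, differed by -4.46 against T cells and by -4.89 against NK cells. It had 0 female and 16 male UMIs, and all 16 were in 1 cell. Mcm7, a subunit of the replicative helicase, differed by -3.79 against NK cells, with 0 and 10 UMIs, 8 of them in 1 cell. Nabp1, a single-stranded DNA binding protein gene, differed by 2.22 against NK cells and was the broadest of these, with 20 and 5 UMIs in 14 and 4 cells.

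Over all 80 members, Pclaf differed by -4.33 and Top2a, a topoisomerase of dividing cells, by -3.10 against NK cells, and the 7 male Top2a UMIs were in 1 cell. Irf8, a transcription factor gene of dendritic cells and B cells, differed by -3.46 against T cells, with all 27 male UMIs in 1 cell. Aif1 and Ms4a7, genes of macrophages, differed by -2.56 and -2.65 against NK cells, with 3 and 10 UMIs for Aif1, of which 9 of the 10 male UMIs were in 1 cell, and 2 and 4 UMIs for Ms4a7.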

How the results depend on the processing

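Members were 1.70% and 2.20% of the cells with at least 2 gate UMIs, and 0.707% and 0.680% with at least 5. The genes that differed from T cells numbered 508 over all 80 members, and 305 with at least 5 gate UMIs, 292 with at least 2 gate genes, 309 with at most 3 Lyz2 UMIs (an alternative chosen after seeing the data), 229 with a pseudocount of 50 CPM, 928 in the female library alone and 861 in the male library alone. Against NK cells the corresponding counts were 500 at first, 321 with at least 5 gate UMIs, 327 with at least 2 gate genes, 223 with a pseudocount of 50 CPM, and 899 and 939 in the female and male library alone. Between libraries, 135 genes became 82 with at least 2 gate UMIs, 51 with a pseudocount of 50 CPM and 273 without a filter on level. The share of genes that were higher was 67.9% against T and 61.8% against NK cells, 54.8% and 48.3% with at least 2 gate genes, and 55.3% and 48.7% with at most 3 Lyz2 UMIs. After a draw of 2000 in place of 1000 UMIs, the members with an Il1rl1 UMI were 77.4% in the female and 77.8% in the male library, those with Gata3 64.5% in the female and those with Il7r 66.7% in the male library.

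Genes of the Lyz2-high members changed direction (means of the 4 log2 differences). With at least 2 gate genes, Ccl6 was at -0.78, Cd74 -0.46, Fcrls -0.28, Fn1 -2.24, Lpl -0.73, Lyz1 -0.79, Lyz2 -0.67, Pltp -1.22 and Retnla -1.61. With at most 3 Lyz2 UMIs, Alox5ap was at -2.07, Ccl6 -2.39, Cd74 -1.79, Ear2 -0.36, Fcrls -0.25, Fn1 -2.24, Lpl -0.71, Lyz1 -1.55, Lyz2 -2.12, Pltp -1.22 and Retnla -1.65. Both settings leave 1 or 0 Lyz2-high members per library. Tyrobp was at 0.33 against the narrowed T and NK cells. No other of the 68 genes named over all members changed direction under a gate, filter, pseudocount or scaling tried. No paired analysis was possible because each sex had 1 library and no result came from a test. A gene with a few UMIs in 28 to 36 cells could not be placed within 2-fold, and counts of 0 allow up to 28.1 and 33.9 CPM.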
